A study of Mus musculus with 8 samples.

Results

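The imprinted growth genes described here are 10 genes chosen by name, H19, Igf2, Igf2r, Meg3, Dlk1, Peg3, Plagl1, Grb10, Mest and Ndn, out of the 46603 rows of a count table. All 10 were found in it, 6 of them had enough reads to be tested, and Dlk1 had no read in any library. The RNA came from sorted EpCAM+ liver cells of 4 mice, named JV602, JV621, JV624 and JV6314, and each mouse gave 1 EGFP+ library (liver label-retaining cells, LLRC) and 1 EGFP- library (non-LRC). All 4 mice were heterozygous for both transgenes (R26rtTA het/H2B-EGFP het), had been given doxycycline between postnatal days 0 and 5, and were 8 weeks old when the cells were sorted. The animals had a mixed C57BL/6 and CBA background. The rtTA transactivator was driven from the ubiquitous Rosa26 locus, so the label was not restricted to the biliary lineage, and EGFP was diluted as cells divided. The study describes EGFP in hematopoietic cells of such mice without doxycycline, and both groups were gated as CD45- for the sort.

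Imprinted genes are read mainly from the allele of 1 parent, which is fixed by DNA methylation set in the germ line. Many of them act on growth before birth: paternally expressed genes such as Igf2, Dlk1, Peg3 and Mest tend to increase it, and maternally expressed genes such as Igf2r, Grb10 and H19 tend to restrain it. In the mouse liver Igf2, H19 and Dlk1 are abundant in the fetus and are switched off in the weeks after birth. The counts do not separate the parental alleles, so the values below are sums over both. Whether any gene named here as imprinted is imprinted in these cells was therefore not tested.

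The libraries were described before the genes, and values given for each library follow the mouse order JV602, JV621, JV624, JV6314, LLRC first. Total counts were between 7860021 and 9851819 in LLRC and between 4670132 and 8056103 in non-LRC libraries, so that 3 counts corresponded to 0.289 to 0.438 CPM (TMM-scaled counts) in LLRC and 0.373 to 0.623 CPM in non-LRC. All 16 cholangiocyte markers examined were read, and their summed level was 113999 to 220014 CPM in LLRC and 66141 to 160310 CPM in non-LRC libraries, with 13 of 15 tested log2 fold changes above 0 (median 0.29). The non-LRC library of JV602 stood apart from its group. Over all tested genes its log2 levels correlated with the 4 LLRC libraries at Pearson's r of 0.864 to 0.888, against 0.687 to 0.806 for the other 3 non-LRC libraries, and with those 3 at 0.695 to 0.795 (libraries share mice and differ in depth, so these are descriptions). Summed endothelial markers stood at 29.5 to 51.4 CPM in LLRC, 191.8 CPM in the non-LRC library of JV602 and 397.1 to 647.2 CPM in the other non-LRC libraries, and 10 of 10 tested endothelial markers were lower in every LLRC than in every non-LRC library, as were 1.91% of all tested genes. Summed stellate cell and fibroblast markers were at 272.7 to 865.7 CPM in LLRC, and at 680.9, 754.8, 2777 and 2301 CPM in non-LRC libraries. Of 12 hepatocyte markers, all tested, 10 had a log2 fold change below 0 and 5 of them an unadjusted p below 0.05 in edgeR (median of the 12 -1.37). Of all 13605 tested genes, 3.56% had such a p with lower levels. The summed level of the hepatocyte markers was 3071 to 3506 CPM in LLRC and 3182, 2265, 7036 and 6342 CPM in non-LRC libraries. Summed mesothelial markers were at 996.2 to 1741 CPM in LLRC and 1272 to 3203 CPM in non-LRC libraries, with 7 of 7 log2 fold changes below 0 (median -1.22), and 1 of the 7, Krt19, is also among the cholangiocyte markers. Leukocyte markers, whose cells the CD45- gate should remove, were highest in the non-LRC library of JV621 (616.6 CPM, 41.8 to 136.5 CPM elsewhere) and pancreatic acinar markers in that of JV6314 (1596 CPM, 2.23 to 22.9 CPM elsewhere). Of the LLRC libraries, that of JV621 held 120 reads of Xist, which had no read in any of the other 7 libraries, while Y-linked Ddx3y, Eif2s3y, Kdm5d and Uty were read in all 8, and whether that library holds cells of another animal was not tested. The part of these other cells in the results below was not tested. In bulk RNA, fewer cells of a type and less RNA per cell cannot be told apart.

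Promoter windows are shown for the 4 members that were read in all 8 libraries at more than 1 CPM, because the RNA levels described below turn mainly on these genes. Each runs from 250 bases before to 50 bases after an annotated start and is taken from RefSeq for GRCm38.p6, 5′ to 3′ on the gene's strand, with matches of the GC box GGGCGG on either strand in capitals. The coordinates are chr7:6730370-6730669 (minus strand) for Peg3, chr10:13090582-13090881 (plus strand) for Plagl1, chr17:12769657-12769956 (minus strand) for Igf2r and chr11:12037371-12037670 (minus strand) for the first of 2 Grb10 windows.
Peg3: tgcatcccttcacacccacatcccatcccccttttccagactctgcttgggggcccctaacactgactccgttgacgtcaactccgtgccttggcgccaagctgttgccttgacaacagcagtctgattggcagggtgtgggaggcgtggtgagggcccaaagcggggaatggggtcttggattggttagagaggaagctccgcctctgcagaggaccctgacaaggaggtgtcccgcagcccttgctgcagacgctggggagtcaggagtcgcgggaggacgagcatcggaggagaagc
Plagl1: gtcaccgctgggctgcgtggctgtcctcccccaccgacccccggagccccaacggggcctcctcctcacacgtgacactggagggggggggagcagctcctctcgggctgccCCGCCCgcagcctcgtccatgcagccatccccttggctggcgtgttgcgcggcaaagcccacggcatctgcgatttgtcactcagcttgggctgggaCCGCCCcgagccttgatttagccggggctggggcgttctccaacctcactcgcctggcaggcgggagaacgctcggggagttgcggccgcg
Igf2r: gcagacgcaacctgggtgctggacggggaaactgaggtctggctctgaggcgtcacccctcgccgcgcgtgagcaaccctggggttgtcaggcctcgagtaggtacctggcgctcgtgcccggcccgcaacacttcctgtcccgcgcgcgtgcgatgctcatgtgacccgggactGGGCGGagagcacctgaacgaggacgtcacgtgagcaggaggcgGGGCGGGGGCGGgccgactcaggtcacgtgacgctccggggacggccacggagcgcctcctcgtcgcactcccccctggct
Grb10: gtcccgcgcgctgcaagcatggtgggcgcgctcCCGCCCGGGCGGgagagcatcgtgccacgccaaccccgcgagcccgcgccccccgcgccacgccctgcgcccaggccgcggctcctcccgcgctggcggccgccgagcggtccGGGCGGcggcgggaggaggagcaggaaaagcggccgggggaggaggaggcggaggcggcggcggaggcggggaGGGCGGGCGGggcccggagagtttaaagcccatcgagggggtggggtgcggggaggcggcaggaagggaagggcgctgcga
The windows hold 13, 26, 34 and 45 CpG dinucleotides in that order, against a median of 7 over all 32851 promoter windows. The GC box was found 0 times in the Peg3 window, 2 times in that of Plagl1, 3 times in that of Igf2r and 5 times in that of Grb10, some of them overlapping, and 35.7% of all windows hold it at least once. The YY1 motif GCCATNTT, searched on both strands, was in none of the 16 windows of the 9 members with an entry and in 6.05% of all windows. Among members with few or no reads, Dlk1 had 9 CpG, the 2 windows of Meg3 13 and 1, and the 4 windows of Igf2 between 2 and 24, so the CpG counts of the 2 kinds of member overlapped.

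Per kilobase of annotated exon the mean levels of the 10 genes differed widely, while the values of single libraries overlapped for several of them. In LLRC libraries Peg3 was at 18.4 ± 3.69 CPM per kb (SD, n = 4) and Plagl1 at 16.99 ± 4.16 CPM per kb, levels above 82.1% and 80.7% of the 13561 tested genes with a known length. Igf2r followed at 6.40 ± 1.89 and Grb10 at 2.97 ± 0.49 CPM per kb, on either side of the median of 4.32 CPM per kb. Ndn (1.09 CPM per kb) and Mest (0.215 CPM per kb) came after them, and Igf2, H19 and Meg3 were at 0.0103, 0.00979 and 0.00753 CPM per kb. In non-LRC libraries the means of Peg3, Plagl1 and Igf2r were 7.96 ± 7.17, 6.34 ± 10.2 and 5.02 ± 1.24 CPM per kb. That of Plagl1 rested on JV602, with 21.6 CPM per kb there and 0.876, 2.77 and 0.176 in the other mice. Ndn followed at 3.22 ± 5.75 CPM per kb, most of it from JV624, and then Grb10 at 2.41 ± 0.26 and Mest at 1.01 CPM per kb. Peg3 and Plagl1 differed by less than their spread in both groups, and in non-LRC libraries neither was separated from Igf2r.

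**Figure D1:**
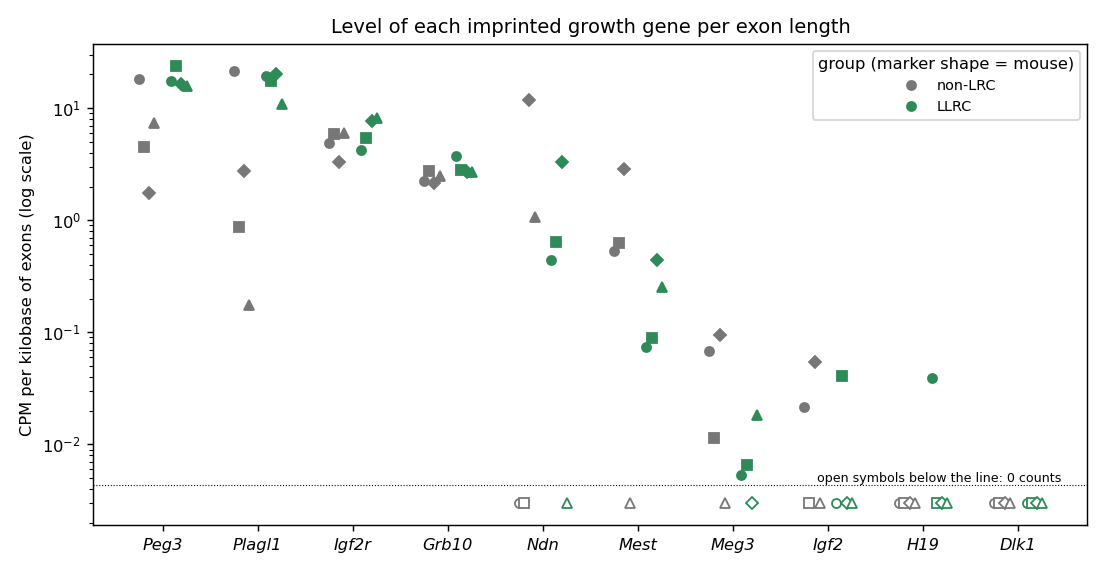
Level of each of the 10 imprinted growth genes in CPM per kilobase of exon (vertical log axis), with 1 symbol for each library, green for LLRC, grey for non-LRC and a marker shape for each mouse. Libraries with 0 counts are drawn as open symbols under the dotted line. Peg3, Plagl1, Igf2r and Grb10 were read in every library, while Meg3, Igf2, H19 and Dlk1 stayed below 0.1 CPM per kb.

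The ligand Igf2 (chr7:142650766-142666816, minus strand), a growth factor that acts through the IGF1 and insulin receptors, was close to absent. It had 0, 2, 0 and 0 counts in LLRC and 1, 0, 2 and 0 in non-LRC libraries. Every library was at or below 3 counts, so no fold is given and no difference was detectable at this depth. Of its exon bases, 62.8% are shared on the same strand with a read-through gene, Gm49394, that has no row in the count table. H19 (chr7:142575529-142578143, minus strand), the maternally expressed long noncoding RNA 72.6 kb from Igf2, had 1 count in the LLRC library of JV602 and 0 counts in the other libraries. Mir675, the microRNA gene inside H19, and the antisense gene Igf2os had 0 counts.

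Dlk1 (chr12:109452823-109463336, plus strand), a membrane protein with EGF-like repeats that marks fetal hepatoblasts, had 0 counts in all 8 libraries, which allows up to 0.289 to 0.623 CPM, depending on the library. Meg3 (chr12:109541001-109571726, plus strand), a maternally expressed long noncoding RNA 77.7 kb from Dlk1, had 1, 1, 0 and 3 counts in LLRC and 10, 1, 11 and 0 in non-LRC libraries. Only the non-LRC libraries of JV602 and JV624 were above 3 counts, and the groups overlapped. Both limits cover counting error only.

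Igf2r (chr17:12682406-12769664, minus strand), the mannose 6-phosphate receptor that takes IGF2 to the lysosome for breakdown, was read in every library. There were 413, 425, 491 and 695 counts in LLRC, and 362, 265, 198 and 285 in non-LRC libraries. Scaled to library size these were 59.6 ± 17.6 CPM in LLRC and 46.8 ± 11.6 CPM in non-LRC (SD, n = 4), with LLRC higher in 2 of 4 mice (3 with upper-quartile factors and 4 with library size alone) and overlapping groups. The ratio of LLRC to non-LRC was 0.883, 0.908, 2.31 and 1.37 in the 4 mice. The log2 fold change (LLRC over non-LRC) was 0.35 with a standard error of 0.33 (exact permutation p = 0.257, two-sided, unpaired). M6pr, the smaller mannose 6-phosphate receptor that does not bind IGF2, stood at 136.0 ± 21.9 and 136.9 ± 41.9 CPM.

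Grb10 (chr11:11930508-12038683, minus strand), an adaptor that binds the insulin and IGF1 receptors and dampens their signal, was under TMM scaling the 1 tested member that was higher in LLRC in all 4 mice. It had 350, 216, 167 and 223 counts in LLRC and 164, 120, 125 and 116 in non-LRC libraries, or 27.0 ± 4.48 and 21.9 ± 2.39 CPM. Of all tested genes, 7.74% were higher in LLRC in all 4 mice. The ratio was 1.65 in JV602 and between 1.02 and 1.24 in the other mice, and the groups overlapped. The log2 fold change was 0.30 with a standard error of 0.30 (exact permutation p = 0.0857). Both values moved with the scaling: LLRC was higher in 4 mice with upper-quartile factors, 3 with DESeq2 size factors and 2 with library size alone, and the exact permutation p was 0.029 (the smallest that 4 against 4 libraries can give), 0.2 and 0.4. The permutation test ignores which libraries share a mouse, so its p does not test the difference within mice.

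Peg3 and Plagl1, both zinc finger proteins of the nucleus, had the highest levels of the tested members in LLRC libraries and the largest positive fold changes, with the same exception in both. In non-LRC libraries Plagl1 was below Igf2r per kb of exon in 3 of 4 mice and Peg3 in JV621 and JV624. Peg3 (chr7:6703892-6730431, minus strand), a paternally expressed DNA-binding protein found in many stem and progenitor cells, had 2395, 2704, 1509 and 1913 counts in LLRC libraries. In the non-LRC libraries it had 1943, 291, 149 and 504 counts. In CPM these were 230.7, 317.9, 220.6 and 211.1 against 241.8, 60.4, 23.4 and 98.8. The non-LRC library of JV602 thus lay among the LLRC libraries, and the other 3 non-LRC libraries lay below every LLRC library, and 6.16% of all tested genes had the 4 LLRC libraries above those 3. The ratio of LLRC to non-LRC was 5.26 in JV621, 9.44 in JV624, 2.14 in JV6314 and 0.954 in JV602 (0.940 to 1.12 in JV602 over the 4 scalings). Over all 8 libraries the means were 245.1 ± 49.2 and 106.1 ± 95.6 CPM (SD, n = 4), a log2 fold change of 1.21 with a standard error of 0.60 (edgeR unadjusted p = 0.0751, adjusted p = 0.9999, exact permutation p = 0.114).

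Plagl1 (chr10:13060504-13131694, plus strand), also known as Zac1, a transcription factor that can arrest the cell cycle and acts on other imprinted genes, varied more. It had 1568, 1160, 1081 and 779 counts in LLRC libraries. In non-LRC libraries it had 1354, 33, 138 and 7 counts. In CPM these were 151.1, 136.4, 158.0 and 86.0 against 168.5, 6.85, 21.6 and 1.37. Again the non-LRC library of JV602 was as high as the LLRC libraries, here above all 4 of them, and the others were below them all. The ratio was 19.9 in JV621, 7.30 in JV624, 62.6 in JV6314 and 0.896 in JV602 (0.883 to 1.05 over the scalings). The means were 132.8 ± 32.5 and 49.6 ± 79.7 CPM (SD, n = 4), a log2 fold change of 1.42 with a standard error of 1.11 (edgeR unadjusted p = 0.233, adjusted p = 0.9999, exact permutation p = 0.143).

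Without the non-LRC library of JV602 the non-LRC means were 60.9 ± 37.7 CPM for Peg3 and 9.96 ± 10.5 CPM for Plagl1 (SD, n = 3). The log2 fold changes were then 2.01 for Peg3 (unadjusted p = 0.00333, adjusted p = 0.201 from edgeR) and 3.71 for Plagl1 (unadjusted p = 0.00211, adjusted p = 0.165), so neither passed an adjusted p of 0.05. In that fit 1230 of 14109 tested genes had an unadjusted p below 0.05, against 702 of 13605 with all libraries. With each library left out in turn, the unadjusted p from edgeR ran from 0.00333 to 0.152 for Peg3 and from 0.00211 to 0.378 for Plagl1. With the mouse as a block over all 8 libraries they were 1.67 (unadjusted p = 0.0353) and 3.28 (unadjusted p = 0.0267), both at an adjusted p of 1.0. With that block 569 of 13605 tested genes had an unadjusted p below 0.05. The non-LRC library of JV602 also had the lowest endothelial and stellate or fibroblast marker sums of its group, as given above. Its stellate or fibroblast sum (680.9 CPM) was close to that of JV621 (754.8 CPM), where Peg3 was at 60.4 and Plagl1 at 6.85 CPM. The part of those cells in the difference was not tested. Over the 8 libraries the log2 levels of Peg3 and Plagl1 correlated at Pearson's r = 0.646, a description of libraries that share mice and differ in depth.

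**Figure D2:**
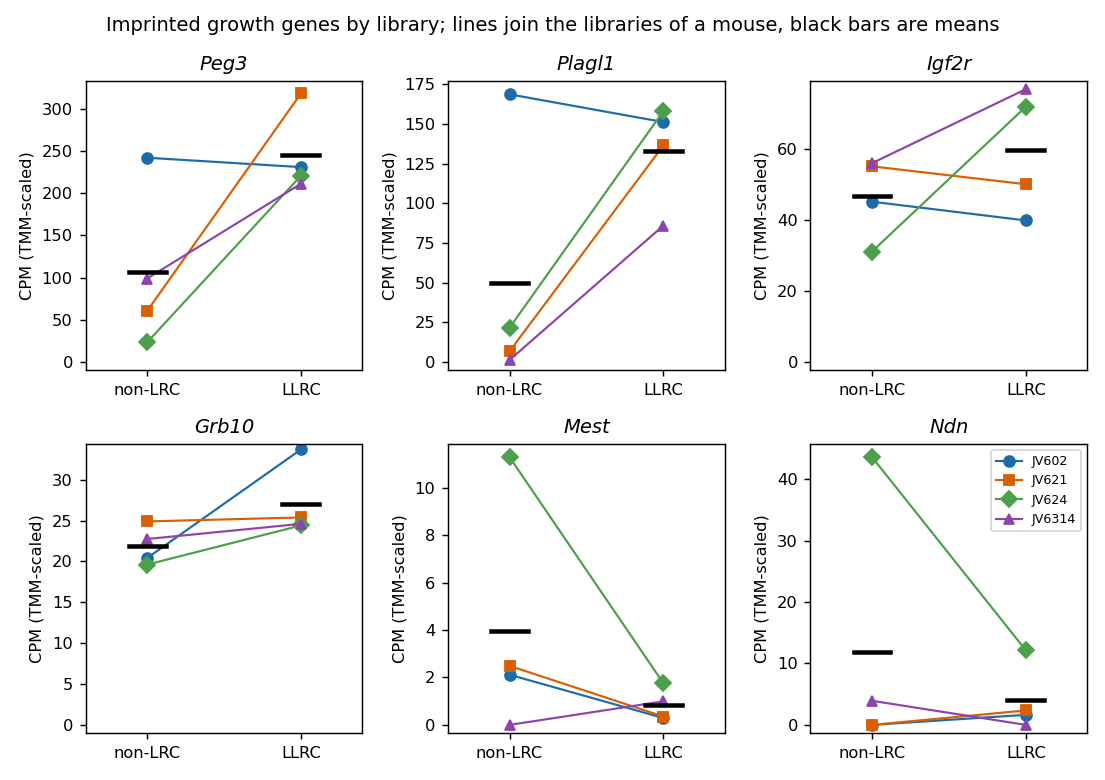
CPM (TMM-scaled, vertical axis) of the 6 tested members in the non-LRC and LLRC library of each mouse, with lines joining the libraries of a mouse and black bars for the group means. For Peg3 and Plagl1 the line of JV602 is nearly level (ratios 0.954 and 0.896) and those of the other 3 mice slope upward to LLRC (ratios of 2.14 to 62.6), while Mest and Ndn are highest in the non-LRC library of JV624.

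Mest (chr6:30723547-30748465, plus strand), a paternally expressed protein with an alpha/beta hydrolase fold, was read at a low level. It had 3, 3, 12 and 9 counts in LLRC and 17, 12, 72 and 0 counts in non-LRC libraries, so that LLRC was lower in 3 of 4 mice, at ratios of 0.137, 0.142 and 0.155, and the groups overlapped. The means were 0.847 ± 0.683 and 3.98 ± 5.00 CPM (SD, n = 4), a log2 fold change of -2.23 with a standard error of 1.22 (edgeR adjusted p = 0.9999, exact permutation p = 0.2). Without the non-LRC library of JV624 the log2 fold change was -0.87 and the non-LRC mean was 1.54 CPM. The opposite-strand gene Copg2 overlaps 23.1% of Mest's exon bases and had 144, 49, 58 and 111 counts in LLRC and 42, 0, 49 and 32 in non-LRC libraries. The counting did not use strand, so the reads of both genes in the shared bases cannot be told apart, and union mode leaves such reads out of both counts.

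Ndn (chr7:62346569-62350262, plus strand) encodes necdin, a growth suppressor of the MAGE family that is paternally expressed. It had 17, 20, 83 and 0 counts in LLRC and 0, 0, 278 and 20 counts in non-LRC libraries. The highest library of each group came from JV624, and 3 libraries had no read. The means were 4.03 ± 5.49 and 11.9 ± 21.2 CPM (SD, n = 4), a log2 fold change of -1.57 with a standard error of 1.89 (exact permutation p = 0.8). The sign turned without the non-LRC library of JV624, at a log2 fold change of 1.62, and with the mouse as a block, at 0.23. That library also had the highest stellate cell and fibroblast marker sum, 2777 CPM. The non-LRC library of JV6314 was next at 2301 CPM, with 0 counts of Mest and 3.92 CPM of Ndn. The part of those cells in the values of Mest and Ndn was not tested.

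By the quasi-likelihood test of edgeR, 0 of the 6 tested members reached an adjusted p below 0.05, and 0 had an unadjusted p below 0.05. The same test called 0 of all 13605 genes (0.0%), with 702 at an unadjusted p below 0.05, of which those higher in LLRC were 1.6% of the genes tested and those lower 3.56%. DESeq2 and edgeR's exact test, which called 265 and 142 of all genes, called 0 members too, although DESeq2 gave no adjusted p for Plagl1 and Ndn. Under TMM scaling the groups overlapped in 6 of the 6 members (with upper-quartile factors those of Grb10 did not), whereas all LLRC libraries were above all non-LRC libraries in 2.15% of tested genes and below them in 1.91%. The log2 fold change was above 0 in 4 members and below 0 in 2, with a median of 0.33, beside -0.01 over all genes. The other 4 members did not pass the expression filter. Without it 9 members were tested, all but Dlk1, and 0 were called.

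The genes with the level profile most like that of the 3 most abundant tested members were found by Pearson's r of log2 CPM over the 8 libraries, which share mice and differ in depth. For Peg3 they were Zfp646 (0.985), Gm15443 (0.979) and Rab28 (0.976). Plagl1 was followed most closely by Tbc1d32 (0.995), which had 4, 20 and 0 counts in the non-LRC libraries of JV621, JV624 and JV6314 and 84 to 213 in the other 5, then by Epdr1 (0.987) and Cdc25a (0.986). For Igf2r they were Fam107b (0.988), Amz2 (0.980) and Magi1 (0.968). No gene was among the closest of more than 1 of these members.

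Imprinted genes sit in clusters that share control regions, and the neighbours within 1000 kb were set beside each member. This distance was chosen after the counts were known. Next to Peg3, the paternally expressed Usp29 lies 0.147 kb away and had 2, 5, 14 and 6 counts in LLRC and 11, 0, 1 and 4 in non-LRC libraries, while Peg3 had 149 to 2704. Zim1 had 24 counts in the LLRC library of JV602 and at most 1 elsewhere. Around Dlk1 and Meg3, the noncoding Rian reached 38 counts in the non-LRC library of JV624 and 16 in the LLRC library of JV602, while Rtl1, Mirg and Dio3 had at most 10 counts. Near Igf2 and H19, Ins2 and Ascl2 had no read, whereas Cd81, a tetraspanin 385.9 kb from Igf2, had 2836 to 8105 counts in every library, and Kcnq1ot1, the noncoding RNA of the adjoining domain, had 344 to 1374.

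Of the genes next to Ndn, Magel2 had no read and Mkrn3, a paternally expressed RING finger protein 67.3 kb away, was read in LLRC libraries alone. Mkrn3 had 48, 53, 32 and 17 counts in LLRC and none in the 4 non-LRC libraries. Against a floor of 3 counts per library it was at least 8.47-fold higher in LLRC (4.35 ± 1.81 CPM, SD, n = 4), and the groups did not overlap. It passed the expression filter through the LLRC libraries alone, so its separation is given as a description, beside the 2.15% of tested genes with all LLRC libraries above all non-LRC libraries, and its adjusted p in the quasi-likelihood test of edgeR was 0.110. DESeq2 gave an adjusted p of 1.17e-05 and edgeR's exact test one of 0.00167. They called 0.441% (of 16099 genes with an adjusted p) and 0.109% of genes as higher in LLRC. Both ran without that filter, but the quasi-likelihood test without it gave an adjusted p of 0.136. These p-values are descriptions too, as Mkrn3 was read in LLRC libraries alone. With the mouse as a block in the quasi-likelihood test the adjusted p was 0.826. Ndn itself did not share this pattern, with reads in the non-LRC libraries of JV624 and JV6314. Airn, the noncoding RNA that overlaps Igf2r without sharing its exons, had 49, 24, 5 and 60 counts in LLRC and 11, 0, 19 and 0 in non-LRC libraries. Beside Grb10, Ddc had 0 to 16 counts in LLRC and 76, 0, 259 and 71 in non-LRC libraries, and Cobl 186 to 393 and 179 to 446.

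**Figure D3:**
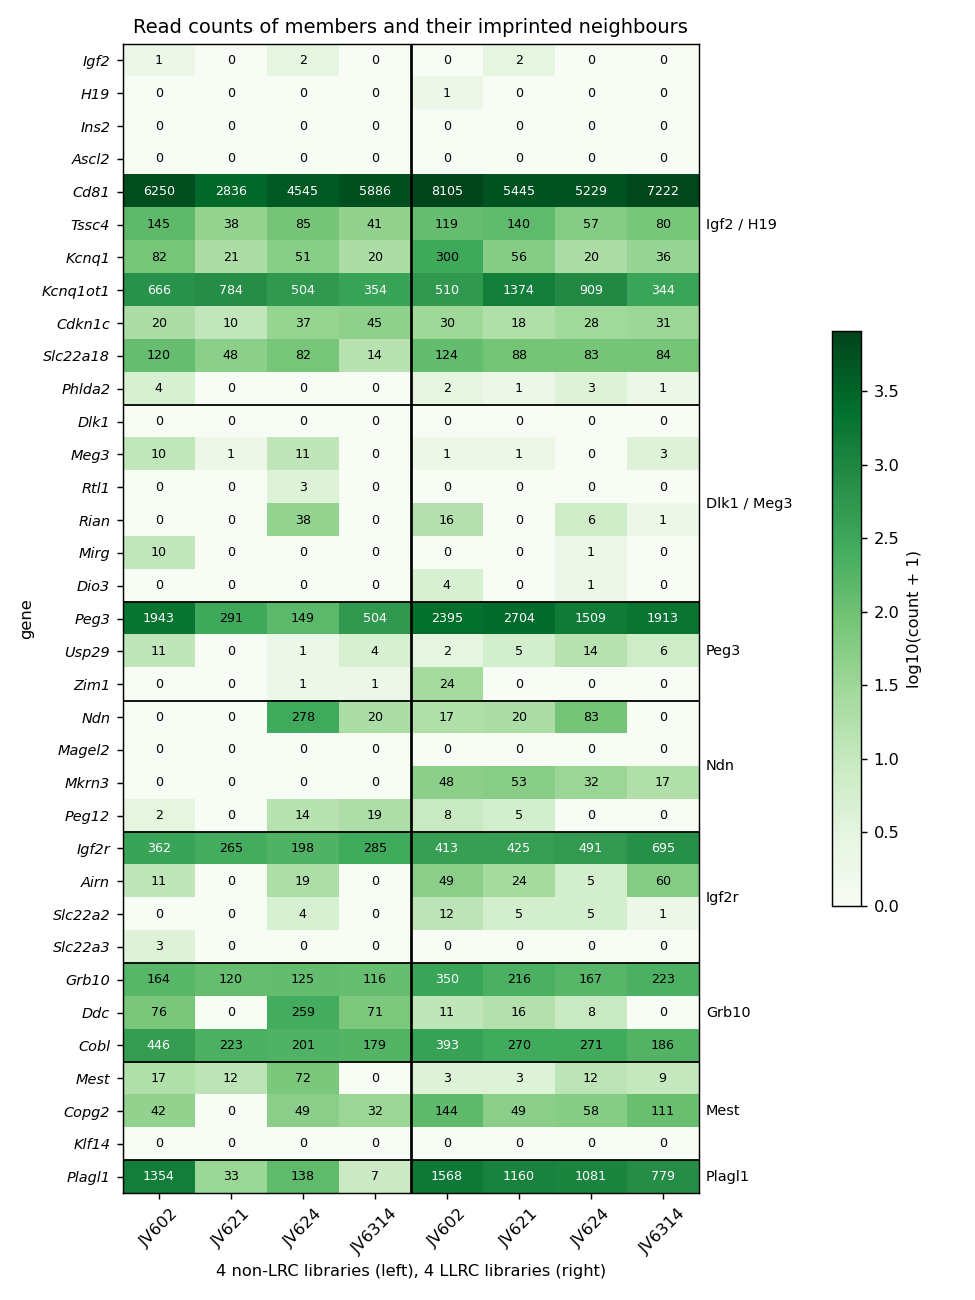
Read counts (printed in each cell, shaded by log10 of the count plus 1) of the members and their imprinted neighbours within 1000 kb, 1 row for each gene and 1 column for each library, with non-LRC on the left and LLRC on the right and lines between clusters. Mkrn3 was read in the 4 LLRC libraries (17 to 53 counts) and in 0 of the 4 non-LRC libraries, and the Dlk1 and Meg3 cluster was read at 38 counts or fewer throughout.

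Among 55 other imprinted genes, 30 were tested, 7 had no read, and 0 had an adjusted p below 0.05 in edgeR. The median log2 fold change was -0.09, with 13 genes above 0 and 17 below. At an unadjusted p below 0.05 were 2 genes with higher levels in LLRC and 3 with lower levels, against 1.6% and 3.56% of all tested genes. The higher genes were Mkrn3, which passed the filter through its LLRC libraries alone, and Zrsr1, a splicing factor relative named here after its values were seen, which had 200, 34, 96 and 110 counts in LLRC and 17, 1, 11 and 37 in non-LRC (log2 fold change 2.13, unadjusted p = 0.0411 in edgeR). The lower genes were Dcn (decorin, a matrix protein, log2 fold change -1.90), Ddc (an amine-forming decarboxylase, -3.95, and -2.91 without the non-LRC library of JV624) and Gatm (an enzyme of creatine synthesis, -4.18, and -2.36 without the non-LRC library of JV621). Dcn is also one of the 12 stellate cell and fibroblast markers, whose sums were given above. Cd81 and Ube3a, a ubiquitin ligase, were the other most abundant genes of the list and had log2 fold changes of -0.12 and -0.13. Asb4, named after its values were seen, was called as lower in LLRC by edgeR's exact test alone, which called 0.406% of genes in that direction, and it had 214 and 51 counts in the non-LRC libraries of JV602 and JV624 and 0 elsewhere.

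The IGF axis around Igf2, Igf2r and Grb10 was described by 28 genes, of which 22 were tested and 0 passed an adjusted p of 0.05. Igf1, the ligand of the adult liver, was the most abundant, with 587.1 ± 197.0 CPM in LLRC and 512.7 ± 93.3 CPM in non-LRC libraries (SD, n = 4, log2 fold change 0.20 with a standard error of 0.30). The median log2 fold change was -0.40, with 6 genes above 0 and 16 below. At an unadjusted p below 0.05 were 4 genes (2 with the mouse as a block), all binding proteins and all with lower levels in LLRC, where 3.56% of all tested genes had such a p with lower levels. Igfbp4 had 318, 113, 77 and 90 counts in LLRC and 298, 228, 773 and 340 in non-LRC. Per library size every LLRC library was below every non-LRC library, as in 1.91% of tested genes (16.3 ± 9.67 against 68.1 ± 37.5 CPM, log2 fold change -2.06, unadjusted p = 0.0032 in edgeR). Igfbp3 had 5, 37, 24 and 9 counts against 20, 177, 254 and 141 (log2 fold change -3.51), Igfbp7 a log2 fold change of -1.26, and Igfbp2, named after its values were seen, one of -3.50. DESeq2 called Igfbp3 (adjusted p = 0.00979) and Igfbp4 (adjusted p = 0.0127), where it called 1.21% of genes as lower. The endothelial and stellate or fibroblast marker sums moved the same way, as did 10 of 12 hepatocyte markers and 7 of 7 mesothelial markers (Krt19 among them), and their part in these values and in those of Ddc and Gatm was not tested. Foxo3, a transcription factor downstream of the insulin receptor, had a log2 fold change of 0.05.

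**Figure D4:**
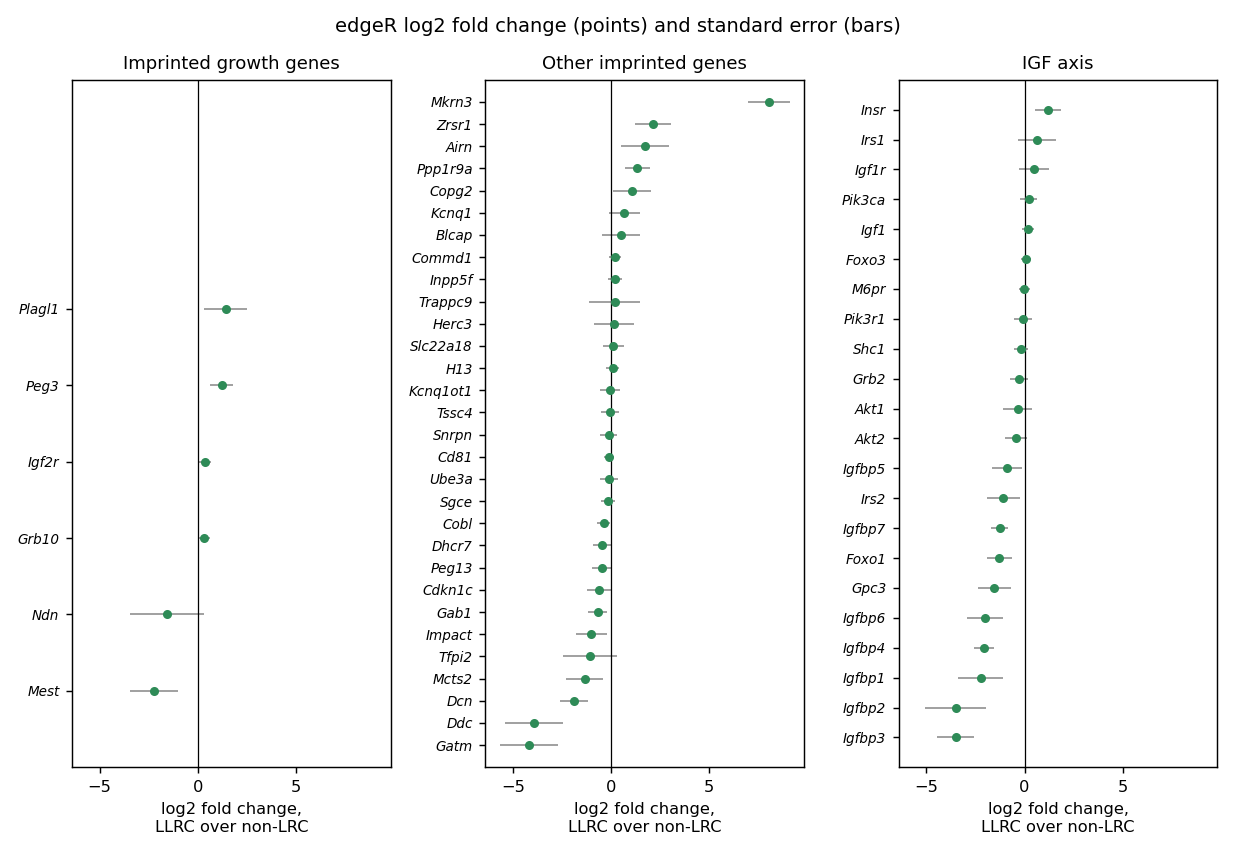
Log2 fold change, LLRC over non-LRC, with its standard error (bars) from edgeR for the tested genes among the imprinted growth genes, the other imprinted genes and the IGF axis, each sorted by value (vertical axis, genes). Points to the right of 0 are higher in LLRC, and 0 of the genes shown passed an adjusted p of 0.05.

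Of 17 genes for factors that set or keep imprints 13 were tested and 0 passed the threshold, with 9 log2 fold changes above 0, 4 below and a median of 0.07. Zfp57, a zinc finger protein that keeps methylation at imprinted control regions, was the 1 gene of these with an unadjusted p below 0.05 (0.00276, adjusted p = 0.321 in edgeR), where 3.56% of all tested genes had such a p with lower levels. It had 15, 28, 18 and 28 counts in LLRC and 40, 51, 105 and 177 in non-LRC libraries, or 2.61 ± 0.83 against 16.7 ± 12.9 CPM, and the LLRC values were all below the non-LRC values, as in 1.91% of tested genes (log2 fold change -2.67, adjusted p = 0.00475 with DESeq2, which called 1.21% of genes as lower, and -2.02 without the non-LRC library of JV6314). The endothelial and stellate or fibroblast marker sums were lower in LLRC too, and their part in the value of Zfp57 was not tested. Dnmt3a, a DNA methyltransferase, had a log2 fold change of 0.83, and Tet2 (0.07) and Kdm1b (0.37), which act in removing methyl marks from DNA and histones, and Ctcf (-0.90, and 0.46 without the non-LRC library of JV621), the insulator protein, had standard errors between 0.43 and 1.15. Of 14 genes related to the fetal liver, markers and regulators alike, 3 were tested with 0 past the threshold. They were Gpc3, a surface proteoglycan (log2 fold change -1.53, and -0.26 without the non-LRC library of JV624, where it had 2328 counts), and the transcription factors Zhx2 (0.44) and Zbtb20 (0.61).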

How the data were processed

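RNA was measured by sequencing in 8 libraries, 4 LLRC and 4 non-LRC, grouped by the sample titles, which also hold the mouse number. The authors' reads were assigned to GRCm38.p4 exons with HTSeq (union mode, unstranded), and the authors deposited raw counts per gene, not normalized. The aligner is not given in the sources used here. The submitters' processing notes name edgeR 3.2.4. A deposited table of the authors' own comparison (fold changes and p-values) was not used.

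Symbols, coordinates and exon lengths were taken from GENCODE M21 (GRCm38) for 46091 of 46603 identifiers. Genes that passed filterByExpr (13605) were scaled by TMM and compared by quasi-likelihood F tests (edgeR 4.0.16, R 4.3.3). The model held the group alone, and p-values were adjusted over all these genes by Benjamini-Hochberg, with a threshold of 0.05. DESeq2 1.42.0 and limma 3.58.1 served as alternatives. The exact two-sided permutation test of CPM over libraries is unpaired, without regard to mouse, and has a smallest p of 0.029. The fit was tested on simulated data. Correlations used log2 CPM with a prior count of 2. Floors of 3 counts cover counting error only.

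By their titles both libraries of a mouse came from 1 animal, so the numbers pair the libraries. Over genes, the correlation between the deviations of both libraries of a mouse was 0.096, 0.074, 0.003 and 0.171. Within a group each library came from another mouse.

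The members and gene lists were chosen with earlier results of these data known. Named are all members, and of each list the genes past the threshold, the 3 most abundant and the 3 with the smallest unadjusted p among tested genes, and for the 3 most abundant members the 3 most correlated genes, plus genes overlapping a member. Departing from this rule, cell type markers are given as sums, and sex-linked genes and some, not all, imprinted neighbours of the members are named. A few more genes were added after their values were seen, as stated beside each. The alternatives were the mouse as a block, other scalings, filters and tests, and each library left out.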

Additional observations from a re-analysis of the deposited data

Results flagged for a closer look

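A library was marked where it lay far from the other 3 of its group by Dixon's test. Of 27 groups of 4 values examined, 5 were marked, and chance marks about 1 group in 20. Plagl1 was at 168.5 CPM in the non-LRC library of JV602, with the others between 1.37 and 21.6 CPM. Grb10 was at 33.7 CPM in the LLRC library of JV602, with the others between 24.4 and 25.4 CPM. Ndn was at 43.6 CPM in the non-LRC library of JV624, with the others between 0.0 and 3.92 CPM. Summed leukocyte markers were at 616.6 CPM in the non-LRC library of JV621 and summed acinar markers at 1596 CPM in that of JV6314.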

How the results depend on the processing

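The number of members called stayed at 0 under all 17 alternatives. Of the members' log2 fold changes, those of Igf2r, Grb10, Peg3, Plagl1 and Mest kept their sign in each alternative that gave a value (DESeq2 was not counted for Plagl1, with no adjusted p), with each library left out in turn giving 0.19 to 0.51, 0.19 to 0.38, 0.87 to 2.01, 1.02 to 3.71 and -2.82 to -0.87. That of Ndn turned to 0.23 with the mouse as a block and to 0.42 with limma, and ran from -3.13 to 1.62 with a library left out. Over all genes 11 were called without an expression filter, 265 by DESeq2, 142 by edgeR's exact test and 0 to 6 with a library left out (the 6 without the non-LRC library of JV602), 0 otherwise. DESeq2 called 1 other imprinted gene and the exact test 2, and DESeq2 called 2 IGF axis genes. The mouse as a block changed no call, at 0 genes. With it 2 members, 3 other imprinted genes and 2 IGF axis genes had an unadjusted p below 0.05, against 0, 5 and 4 without it. Of the 20 other genes compared across the alternatives (Zrsr1, Igfbp2, Asb4, Airn and Cobl were not among them), 7 changed sign: with a library left out Cd81 ran from -0.23 to 0.11, Ube3a from -0.37 to 0.37, M6pr from -0.17 to 0.14, Foxo3 from -0.068 to 0.14, Tet2 from -0.31 to 0.36, Ctcf from -1.24 to 0.46 and Kdm1b from -0.034 to 0.74. M6pr was at 0.029 with the block, 0.034 without a filter and in the exact test, 0.024 with upper-quartile scaling, 0.015 with a minimum of 1 CPM, and 0.19 with limma, which also gave 0.30 for Ube3a and 0.22 for Ctcf. Foxo3 was at -0.014 without scaling factors. The cause was not tested. Igf2, H19 and Meg3 were too low to compare at these depths, and the sizes of the Mest and Ndn differences depend on the non-LRC library of JV624.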
